A study of Mus musculus with 14 samples.

Results

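The Omt2 and Oog genes are genes of the mouse oocyte, and 5 of them were followed here in single two-cell embryos made by somatic cell nuclear transfer (SCNT): Omt2a, Omt2b, Oog1, Oog3 and Oog4. They are 5 of 20636 genes, with 7 of 25650 transcript entries, since Omt2a and Oog1 have more than one entry each and the entries of a gene were summed. Omt2a was chosen by its high level and by its higher level after treatment with TSA alone, so its level and the comparison of TSA(0-8 h) with control embryos are given below as a description, without a test. The same holds for Omt2a, and for Omt2b, which shares reads with it, in every comparison that includes those embryos.

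The oocyte fills its cytoplasm with RNA while it grows, and the early embryo lives on this store until its own genome is switched on, which in the mouse happens mainly at the two-cell stage. In SCNT the chromosomes of the oocyte are replaced by the nucleus of a somatic cell, while the cytoplasm, with its stored RNA, is kept. Omt2a and Omt2b were named for oocyte maturation and encode small proteins, and the oogenesins Oog1, Oog3 and Oog4 encode leucine-rich repeat proteins of the PRAME-like family, a large mouse gene family with many members in oocytes and early embryos. RNA stored in the egg and RNA made from the transferred nucleus cannot be told apart in these libraries.

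The study asked how trichostatin A (TSA), an inhibitor of histone deacetylases, and vitamin C (VC), alone or in sequence, change the transcripts of SCNT embryos. All 14 embryos were B6D2F1 SCNT embryos with cumulus cell nuclei, activated in strontium chloride with cytochalasin B, cultured in mKSOM with deionized BSA and collected at 28 h, which the paper counts from egg activation and the labels from nuclear transfer. The 3 control embryos received neither compound, TSA was given at 50 nM from 0 to 8 h, and VC at 10 µg/ml from 0 to 8 h or from 8 to 15 h. VC alone was given to 1 embryo early and to 2 late, TSA alone to 3, both compounds together to 2, and TSA followed by late VC to 3, and 1 RNA-seq library was amplified from each single embryo without its zona pellucida. TSA was always given from 0 to 8 h, so the groups with both compounds are written TSA+VC(0-8 h) and TSA+VC(8-15 h). Values are RPKM, the reads of a transcript scaled by its length and by the reads of the library, so each is a share of the reads of its embryo, and a smaller amount of one RNA and a larger amount of all others cannot be told apart.

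Each library held 3021540 to 13589389 counted reads, at which 3 reads on a transcript of 1 kb equal 0.221 to 0.993 RPKM, and the number of genes at 1 RPKM or more ran from 3130 in VC(8-15 h) replicate 2 to 6231. The embryos came from 3 sequencing pools of 5, 6 and 3 embryos, and control, TSA(0-8 h) and TSA+VC(8-15 h) embryos with the same replicate number were in the same pool. Of 29 oocyte marker genes, 12 to 20 were at 1 RPKM or more in each embryo, and their summed level was 2072 to 6780 RPKM. Among them, Figla and Zar1l were at 0 in all embryos. Of 21 cumulus and granulosa cell markers, 14 were under 1 RPKM in all embryos and 0 to 3 reached it in any one embryo. Their summed level was at most 2.44 RPKM in 10 embryos and 27.2 to 90.4 RPKM in the other 4. The highest values in any embryo were 68.97 RPKM for Vcan, 67.1 for Runx2, 20.9 for Kitl, 13.8 for Fst and 11.9 for Inhbb. Fshr, Lhcgr, Inha, Inhba and Adamts1 were at 0 in all 14, and 0 of the list passed the filter of the tests. The part of the cumulus and granulosa markers in the results was not tested.

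Omt2a and Omt2b lie close to each other on mouse chromosome 9, with the annotated gene Gm8074 between them. In mm9, the build of the files, Omt2a spans chr9:78159779-78162604 on the minus strand and Omt2b chr9:78175396-78177427 on the plus strand, 12791 bases apart, and both are protein-coding. Their coding sequences are related, with 60.6% identity over 360 alignment columns, gaps included, and 218 identical bases among the 273 aligned. The second exon is 171 bases long and coding throughout in both. It is shown because it ends in a stretch whose reads can belong to either gene. Capitals mark the 40 bases at which the 2 exons differ, and the sequences are those of chr9:78160712-78160882 on the minus strand for Omt2a and chr9:78176329-78176499 on the plus strand for Omt2b (mm9), from 5′ to 3′.
Omt2a: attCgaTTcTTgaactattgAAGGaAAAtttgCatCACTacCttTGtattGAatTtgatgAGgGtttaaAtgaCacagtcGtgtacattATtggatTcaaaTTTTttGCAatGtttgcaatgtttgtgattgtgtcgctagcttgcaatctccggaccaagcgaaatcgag
Omt2b: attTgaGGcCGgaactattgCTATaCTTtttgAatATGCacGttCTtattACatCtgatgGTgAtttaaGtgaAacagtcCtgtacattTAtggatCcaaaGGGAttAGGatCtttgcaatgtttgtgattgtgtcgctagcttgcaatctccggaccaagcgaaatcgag
The exons are 76.6% identical, and their last 58 bases are the same. Over all annotated transcripts, 374 windows of 50 bases, the read length, were found in both genes, which is 24.8% of the windows of Omt2a and 45.7% of those of Omt2b. How the counting divided reads from such stretches is not given in the sources used here, so the levels of the 2 genes are not fully separate measurements.

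Omt2a was one of the most abundant transcripts of these embryos. It was at 874, 1022 and 2469 RPKM in control embryos and at 10378, 6225 and 2831 RPKM in TSA(0-8 h) embryos. With VC added from 8 to 15 h after TSA it was at 1756, 800.4 and 2187 RPKM, and with TSA and VC together from 0 to 8 h at 1565 and 1342 RPKM. The VC(8-15 h) embryos were at 505 and 1283 RPKM and the VC(0-8 h) embryo at 477 RPKM. The 3 TSA(0-8 h) embryos were thus the 3 highest of all 14, while the lowest of them, replicate 3, was close to control replicate 3 from the same pool.

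Among all genes of an embryo Omt2a ranked between 2 and 74 by RPKM, with a median rank of 13.5, and it took 0.130% to 2.47% of the summed RPKM. Group means were 6478 ± 3780 (SD, n = 3) in TSA(0-8 h), 1581 ± 710 (n = 3) in TSA+VC(8-15 h), 1455 ± 881 (n = 3) in control, 1453 ± 158 (n = 2) in TSA+VC(0-8 h) and 894 ± 551 (n = 2) in VC(8-15 h) embryos. In this order the TSA(0-8 h) group did not overlap with the next, the following 3 groups overlapped with their neighbours, and both VC groups without TSA lay below TSA+VC(0-8 h).

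Omt2b was less abundant at the median, 966 against 1453 RPKM, and more variable. It was at 578, 533 and 2919 RPKM in control, at 5030, 2008 and 1662 RPKM in TSA(0-8 h) and at 446, 462 and 1481 RPKM in TSA+VC(8-15 h) embryos. TSA+VC(0-8 h) embryos had 1225 and 1308 RPKM, VC(8-15 h) embryos 708 and 139 RPKM and the VC(0-8 h) embryo 357 RPKM. Control replicate 3 lay above 2 of the 3 TSA(0-8 h) embryos, and all neighbouring groups in the order of means overlapped. The rank of Omt2b ran from 5 to 776, with a median of 32.5.

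**Figure D1:**
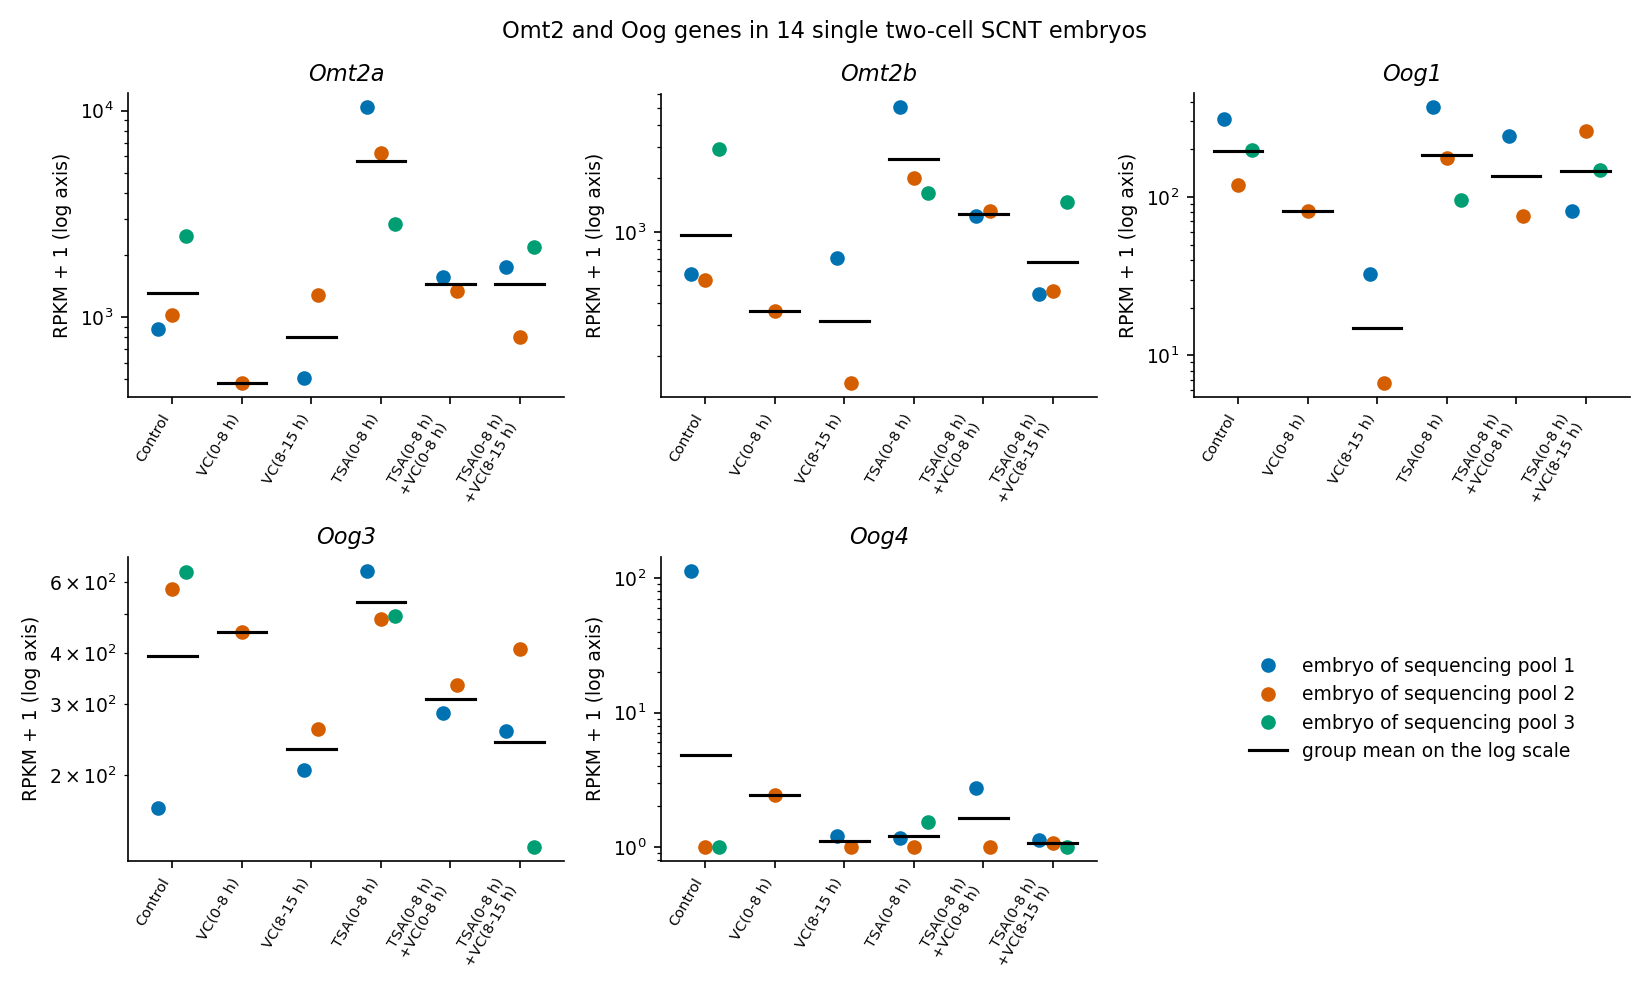
RPKM + 1 of each member (log axes) in the 14 embryos by group, with each point an embryo coloured by sequencing pool and each line the group mean on the log scale. Omt2a in the 3 TSA(0-8 h) embryos, at 2831 to 10378 RPKM, lies above all other embryos, Oog1 is lowest in both VC(8-15 h) embryos, and Oog4 is high in control replicate 1 alone.

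Oog1 lies on chromosome 12 at chr12:88943638-88949795 (mm9, plus strand), while Oog3 lies on chromosome 4 at chr4:143747460-143752566 and Oog4 at chr4:143027067-143040227, both on the minus strand. Oog2, an oogenesin that is not among the 5 genes, lies close to Oog3 at chr4:143780622-143787534 on the plus strand. Coding sequences of the 4 oogenesins are 70.3% to 80.3% identical in pairs. In contrast to the Omt2 genes, their identical stretches are short: Oog1 and Oog4 share 14 windows of 50 bases and the other pairs share 0, so that reads of one oogenesin rarely fit another. Oog1 itself is present in more than one copy. Of 58 windows taken from its coding sequence, 52, 50 and 34 were found at 3 places on chromosome 12, and the files list the gene as 2 locus entries whose levels differed by a ratio of 0.883 to 1.19. Reads from stretches that the copies share cannot be told apart. The value given for Oog1 is the sum of both entries, so a read counted on both would enter it more than once.

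The promoters of the oogenesins also resemble each other, with 63.9% to 76.4% identity in pairs, against 41.7% for Omt2a and Omt2b. The stretches shown are each 121 bases, read toward the gene and lying wholly before the annotated start, and are taken from RefSeq with its build GRCm38.p6, at chr12:87602544-87602664 (plus strand) for Oog1, chr4:144190572-144190692 (plus) for Oog2, chr4:144162675-144162795 (minus) for Oog3 and chr4:143450347-143450467 (minus) for Oog4. They are printed because they are the regulatory sequence that these genes have in common, and capitals mark a core of 11 bases, chosen because all 4 have it.
Oog1: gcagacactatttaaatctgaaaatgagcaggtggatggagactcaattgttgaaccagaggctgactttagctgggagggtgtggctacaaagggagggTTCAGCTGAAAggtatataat
Oog2: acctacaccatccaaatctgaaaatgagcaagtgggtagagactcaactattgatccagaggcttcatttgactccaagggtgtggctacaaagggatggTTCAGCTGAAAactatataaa
Oog3: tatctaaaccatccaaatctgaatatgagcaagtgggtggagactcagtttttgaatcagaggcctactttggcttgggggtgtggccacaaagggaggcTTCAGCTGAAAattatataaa
Oog4: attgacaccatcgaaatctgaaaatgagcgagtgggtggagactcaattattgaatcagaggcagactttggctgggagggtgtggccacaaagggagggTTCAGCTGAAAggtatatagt
The core, TTCAGCTGAAA, contains CAGCTG, one form of the E-box CANNTG, a sequence that basic helix-loop-helix factors bind. Within the 300 bases of the RefSeq promoter windows, searched on both strands, the core was found in 16 of 27025 promoters (0.0592%), CAGCTG in 16.1%, CANNTG in 72.1% and TATATA, which the 4 oogenesins also hold, in 5.94%. The core ends 11 bases before the annotated start of Oog1 and 33 to 35 bases before that of the other 3. Besides the oogenesins, the promoters with the core include those of the PRAME-like genes Pramel32, Pramel23 and Pramel26. The others are those of Kcnj13, Lcn15, Pik3ip1, Gm32920, Gm13403, Gm13404, Gm39204, Gm34439 and Gm2042. Gm2042 lies on chromosome 12 and was at a median of 70.3 RPKM, while Kcnj13 and Pik3ip1 were at a median of 0. Neither Omt2 promoter holds the core or TATATA. The Omt2a promoter holds another E-box, CAGGTG, which 20.03% of promoters have, and the Omt2b promoter does not. These matches describe the letters of the windows, not bound sites.

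Despite the shared promoter sequence, the 4 oogenesins stood at very different levels. Oog3 was the most abundant of them at the median, and the steadiest of the members at 1 RPKM or more. It was at 165, 576 and 637 RPKM in control, 639, 485 and 495 RPKM in TSA(0-8 h), 256, 410 and 132 RPKM in TSA+VC(8-15 h), 284 and 333 RPKM in TSA+VC(0-8 h), 205 and 259 RPKM in VC(8-15 h) and 450 RPKM in the VC(0-8 h) embryo. From the lowest to the highest embryo this is a 4.85-fold range, against 21.8-fold for Omt2a, 36.1-fold for Omt2b and 65.2-fold for Oog1.

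Oog1 was at 309, 118 and 197 RPKM in control, 368, 174 and 95.1 RPKM in TSA(0-8 h), 80.2, 261 and 147 RPKM in TSA+VC(8-15 h) and 243 and 74.4 RPKM in TSA+VC(0-8 h) embryos. The VC(0-8 h) embryo had 79.95 RPKM, and the VC(8-15 h) embryos had 31.8 and 5.64 RPKM. Both VC(8-15 h) embryos were therefore below the other 12, with 576 and 68 reads on the gene. Replicate 2 of this group, the lower one, was also the library with the fewest genes at 1 RPKM or more.

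Oog4 was high in a single embryo. Control replicate 1 had 112.6 RPKM from 1196 reads, whereas the other 13 embryos had at most 1.72 RPKM and at most 12 reads, and 6 of them had no read. For those 6, 3 reads would equal 0.113 to 0.233 RPKM. These limits cover counting error only, since the reads were amplified. Oog2 was similarly uneven. It was at 101.4 RPKM in control replicate 1, 41.6 RPKM in TSA+VC(0-8 h) replicate 2, 17.1 RPKM in VC(8-15 h) replicate 1 and 16.3 RPKM in the VC(0-8 h) embryo, and at no more than 2.92 RPKM in the other 10. Control replicate 1, with both, had the lowest Oog3 of the 3 control embryos.

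The 4 members at 1 RPKM or more in all embryos varied less between embryos of the same treatment than most genes did. The within-group SD of log2(RPKM+1) was 0.69 for Oog3, 0.80 for Omt2a, 1.02 for Oog1 and 1.12 for Omt2b. The median over 4228 genes was 2.23, and the 4 values lay at percentiles 1.68, 2.58, 4.99 and 6.32. For Oog4, at or near 0 outside control replicate 1, the SD was 2.01. Genes of the same level were not set apart for this comparison.

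The 2 Omt2 genes followed each other across embryos. Over the 14 embryos, Spearman's rho was 0.78 and Pearson's r of log2 values 0.74 for Omt2a and Omt2b, which share reads as described above. The other 5 pairs of the 4 detected genes had rho from 0.27 to 0.47, with Oog1 and Oog3 the lowest. These correlations pool the treatments, share library depth within an embryo and are given without a test. The ratio of Omt2a to Omt2b was 1.61 at the median and ran from 0.713 to 9.21, and the highest ratio was again in VC(8-15 h) replicate 2, where Omt2b was at its lowest. The ratio of Oog3 to Oog1 ran from 0.534 in control replicate 1 to 45.95 in VC(8-15 h) replicate 2.

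**Figure D2:**
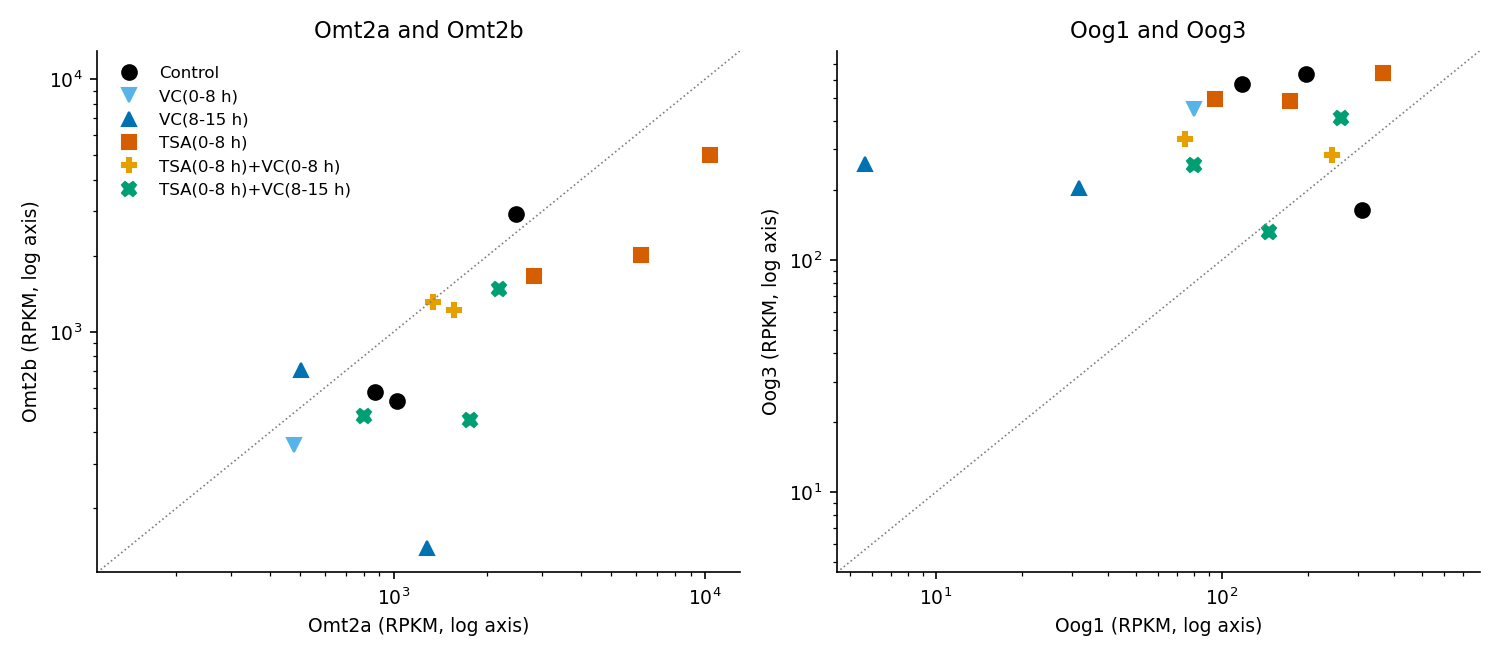
RPKM of Omt2b against Omt2a (left) and of Oog3 against Oog1 (right) on log axes, with each point an embryo, symbols and colours for the 6 groups, and a dotted line where both genes are equal. Omt2a and Omt2b rise together with rho 0.78, with VC(8-15 h) replicate 2 far below the line, while Oog3 stays within a 4.85-fold range as Oog1 varies over 65.2-fold.

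The 2 transcript entries of Omt2a did not keep a constant proportion. One has 722 bases and the other 610 bases, the length of the annotated transcript Omt2a-201, which shares 477 bases, or 78.2% of its length, with transcript Omt2a-001. Transcript Omt2a-001 has 1167 bases and so is not the entry of 722 bases. The overlap of the 2 entries themselves was not measured. The entry of 722 bases held 33.3% of the Omt2a reads at the median and between 9.49% in TSA(0-8 h) replicate 3 and 98.2% in VC(8-15 h) replicate 2. In the latter embryo 5963 reads fell on the longer and 108 on the shorter entry. Control embryos alone ranged widely, at 64.9%, 12.0% and 26.8%, whereas the 5 embryos with both TSA and VC stayed between 32.9% and 43.2%.

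**Figure D3:**
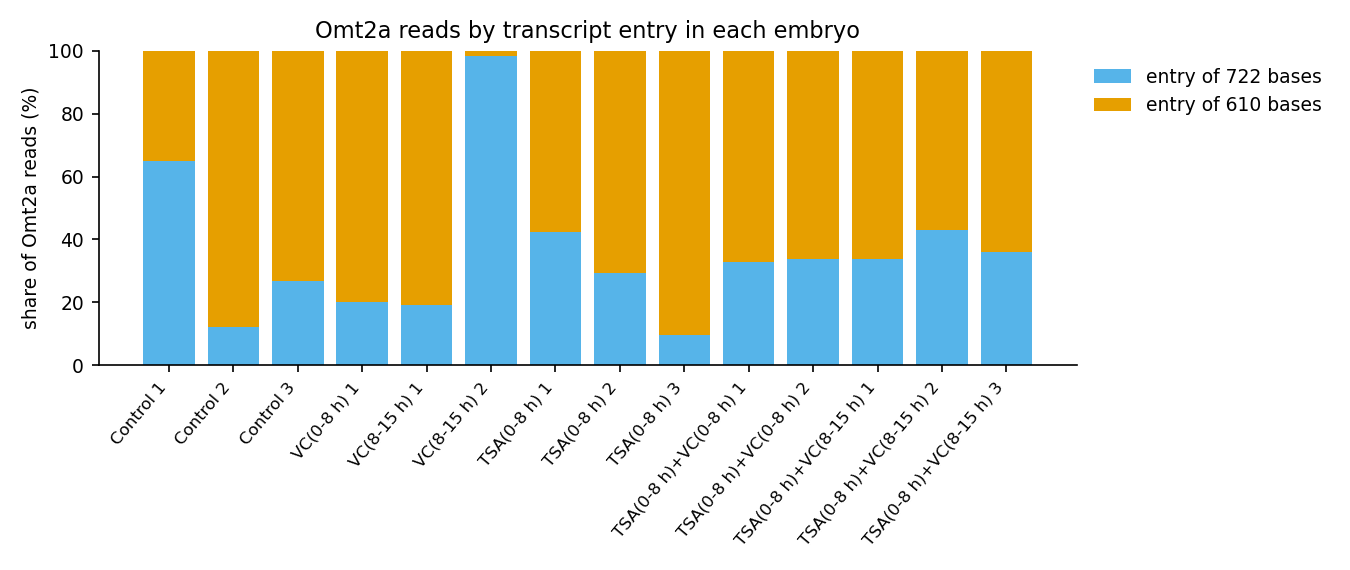
Share of the Omt2a reads (%, linear axis) on the transcript entry of 722 bases and on that of 610 bases in each of the 14 embryos, named by group and replicate. The share on the longer entry runs from 9.49% to 98.2%, with the 5 embryos that received TSA and VC between 32.9% and 43.2%.

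The contrast that chose Omt2a, TSA(0-8 h) against control, is described first. The mean of Omt2a was 4.45-fold higher with TSA, a log2 difference of 2.12, and all 9 pairs of a TSA(0-8 h) and a control embryo had the same direction. Omt2b was 2.16-fold higher in the mean, with a log2 difference of 1.41 and 7 of 9 pairs, while Oog1 differed by -0.08 and Oog3 by 0.45 on the log2 scale. Of the 2490 genes tested in this contrast 0% passed an adjusted p-value of 0.05, and 6.59% were higher in TSA(0-8 h) without overlap, which applies to Omt2a by its choice. Within pools, the log2 difference of Omt2a was 3.57, 2.61 and 0.20 and that of Omt2b 3.12, 1.91 and -0.81 in pools 1 to 3. The difference was thus larger in pools 1 and 2 than in pool 3 for both genes.

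Whether a TSA difference was seen in other embryos was asked among the 8 VC-treated embryos, none of which took part in that contrast. Omt2a, Omt2b and Oog1 had higher means in the 5 embryos with TSA than in the 3 without, but none passed the test after adjustment, and the values of Oog3 lay on both sides. Omt2a had 800.4 to 2187 RPKM with TSA (median 1565) and 477, 505 and 1283 RPKM without it, so that TSA-treated embryos were higher in 14 of 15 pairs. Omt2b had 446 to 1481 RPKM (median 1225) against 139, 357 and 708 RPKM and was higher in 13 of 15 pairs. Oog1 had 74.4 to 261 RPKM (median 147) against 5.64, 31.8 and 79.95 RPKM and was higher in 14 of 15 pairs. For all 3 genes the ranges overlapped through 1 VC-only embryo.

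In a limma fit with the VC window as a covariate, the log2 difference was 1.12 (SE 0.47, adjusted p = 0.463) for Omt2a, 1.36 (SE 0.60, adjusted p = 0.476) for Omt2b, 2.39 (SE 1.01, adjusted p = 0.463) for Oog1 and -0.16 (SE 0.61, adjusted p = 0.958) for Oog3. At an adjusted p-value of 0.05, 0 of the 4 members tested passed, as did 0% of the 2990 genes tested. At an unadjusted p-value under 0.05, 3 members were higher, beside 4.95% of all genes, and limma-voom on recovered reads called 0 members and 9 genes. None of these 3 stayed under 0.05 in limma-voom, without the eBayes trend, with the pool as a block or with median-ratio scaling. The last gave log2 differences of 0.44 (SE 1.01) for Omt2a, 0.67 (SE 0.94) for Omt2b and 1.75 (SE 1.13) for Oog1. All 3 stayed under it with quantile normalization, equal sums, a filter blind to the groups, a pseudocount of 0.1 or 5 RPKM. Without a filter only Oog1 did. In the main fit the median log2 difference of the 4 members was 1.24, beside 0.16 for all genes tested. Two-sided exact permutation tests over the 56 ways to divide the 8 embryos gave p = 0.0714 for Omt2a, p = 0.143 for Omt2b, p = 0.0714 for Oog1, p = 0.857 for Oog3 and p = 0.714 for Oog4, and 0.0357 is the smallest p-value that this design allows.

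Pool 1 gave log2 differences of 1.71, 0.06 and 2.10 for Omt2a, Omt2b and Oog1 and pool 2 gave 0.40, 1.80 and 2.60, whereas pool 3 held no embryo with VC alone. Only Oog1 was therefore about equally higher within both pools. Without VC(8-15 h) replicate 2, the library with the fewest genes, the log2 difference of Oog1 was 1.49, that of Omt2b 0.82 and that of Omt2a 1.56, so this library widened the first pair and narrowed the last. Other embryos moved the values the other way: without the VC(0-8 h) embryo the difference of Oog1 was 3.31, and without VC(8-15 h) replicate 1 that of Omt2b was 2.06.

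VC given after TSA was set next beside TSA alone, and these are again the TSA(0-8 h) embryos whose high values led to the choice of Omt2a, so that a lower level in the other group is partly fixed by the choice. Omt2a, Omt2b and Oog3 were lower in all 3 TSA+VC(8-15 h) embryos than in any TSA(0-8 h) embryo. The mean level was 0.244 of that with TSA alone for Omt2a, 0.275 for Omt2b, 0.493 for Oog3 and 0.766 for Oog1. Groups that did not overlap in this direction made up 3.44% of the 3140 genes tested, against 18.2% in the opposite direction.

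On the log2 scale the differences were -1.96 (SE 0.46) for Omt2a and -1.93 (SE 0.55) for Omt2b, given as a description, and -0.33 (SE 0.92, adjusted p = 0.895) for Oog1 and -1.15 (SE 0.68, adjusted p = 0.410) for Oog3. Over all genes tested the median difference was 1.20 in the opposite direction, and the members lay below it. This median depends on the processing, at 0.065 without a filter and -0.0021 with median-ratio scaling. The TSA(0-8 h) embryos had 3930, 3337 and 4005 genes at 1 RPKM or more, against 5134, 5161 and 5350 in TSA+VC(8-15 h) embryos. In limma 0% of all genes passed, so neither did Oog1 or Oog3. Of these 2 genes, 0 were lower at an unadjusted p-value under 0.05, beside 2.17% of all genes. In limma-voom on recovered reads 286 genes were called, Oog1 and Oog3 not among them. With the replicate number as a block, which here is also the pool, 153 genes passed, Oog1 and Oog3 not among them. Without TSA+VC(8-15 h) replicate 3, which had the highest level of both Omt2 genes in its group, the differences were -2.26 for Omt2a and -2.49 for Omt2b.

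Within pools the 3 log2 differences of Omt2a were -2.56, -2.96 and -0.37, those of Omt2b -3.49, -2.12 and -0.17 and those of Oog3 -1.32, -0.24 and -1.90. All 9 were negative, but the size differed between pools, and the 3 values of Omt2a have an SD of 1.39. For Oog1 the signs differed, at -2.18, 0.58 and 0.62.

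**Figure D4:**
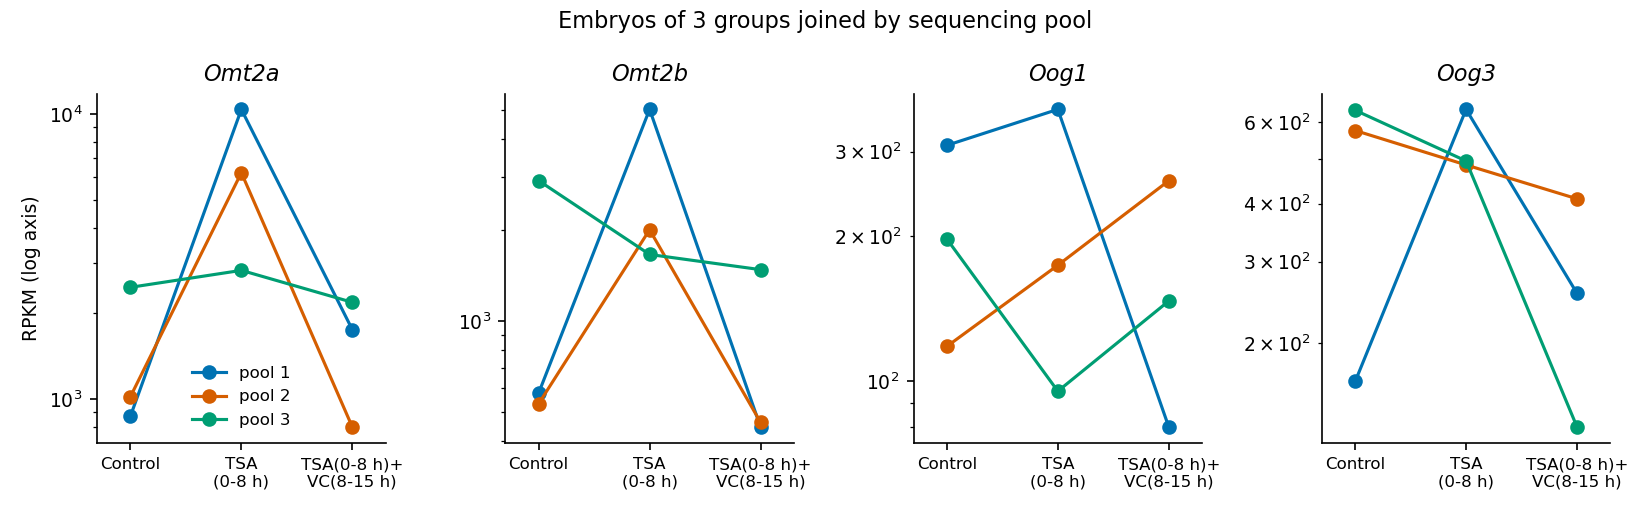
RPKM (log axes) of Omt2a, Omt2b, Oog1 and Oog3 in control, TSA(0-8 h) and TSA+VC(8-15 h) embryos, with lines joining embryos of the same sequencing pool and not repeated measurements of an embryo. In pools 1 and 2 both Omt2 genes are highest with TSA alone, whereas in pool 3 Omt2a stays between 2187 and 2831 RPKM and Omt2b is highest in the control embryo.

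Against control embryos, which this comparison shares with the contrast that chose Omt2a, the sequential treatment left the members without a clear difference. The log2 difference was 0.16 (SE 0.51) for Omt2a and -0.52 (SE 0.68) for Omt2b, as a description, and -0.41 (SE 0.83, adjusted p = 0.848) for Oog1 and -0.71 (SE 0.74, adjusted p = 0.673) for Oog3, and all groups overlapped. In limma 0% of the 3323 genes tested passed. Neither Oog1 nor Oog3 had an unadjusted p-value under 0.05, beside 17.7% of all genes. In limma-voom 321 genes were called, Oog1 and Oog3 not among them. The median log2 difference was -0.46 for the 4 members and 0.78 for all genes tested. The latter was 0.020 without a filter and -0.035 with median-ratio scaling. For Omt2a the pools gave 1.01, -0.35 and -0.17, and for Oog1 -1.94, 1.14 and -0.43, with no common direction. Each of the 4 differences was smaller than its standard error, which does not show that the levels were equal. The sign for Omt2a turned without control replicate 1 (-0.13), control replicate 2 (-0.014) or TSA+VC(8-15 h) replicate 3 (-0.13) and with median-ratio scaling (-0.66).

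Finally, the VC(8-15 h) difference was estimated over the 11 embryos with and without TSA, with TSA as a covariate. The TSA(0-8 h) and control embryos of the contrast that chose Omt2a enter here too. All 4 members had lower fitted levels with VC(8-15 h), and Oog1 and Oog3 did not pass after adjustment. The log2 difference was -1.40 (SE 0.37) for Omt2a and -1.79 (SE 0.48) for Omt2b, as a description, and -1.83 (SE 0.92, adjusted p = 0.452) for Oog1 and -0.98 (SE 0.61, adjusted p = 0.561) for Oog3. In limma 1 of 4020 genes passed (0.0249%), and it was neither Oog1 nor Oog3. Of Oog1 and Oog3, 0 were lower at an unadjusted p-value under 0.05, beside 1.64% of all genes. In limma-voom 6 genes were called, Oog1 and Oog3 not among them. The median log2 difference was -1.59 for the 4 members and 0.66 for all genes tested. The latter was 0.022 without a filter and 0.19 with median-ratio scaling.

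The parts of this estimate differed between the genes. Without TSA, VC(8-15 h) embryos had a mean Omt2a level 0.614 of that in control embryos, with 2 of 6 pairs higher, and a mean Omt2b level 0.315 of it, also with 2 of 6 pairs higher. Oog1 was at 0.0900 of the control level and lower in 6 of 6 pairs, beside 10.8% of 3080 genes that were lower without overlap in this comparison of 2 with 3 embryos. In pools 1 and 2 Oog1 was lower by -3.24 and -4.16 on the log2 scale. With TSA present the same VC treatment left Oog1 overlapping, as given above. The difference between these 2 effects was not tested. Without VC(8-15 h) replicate 2 the estimate for Oog1 over the 11 embryos was -1.07.

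**Figure D5:**
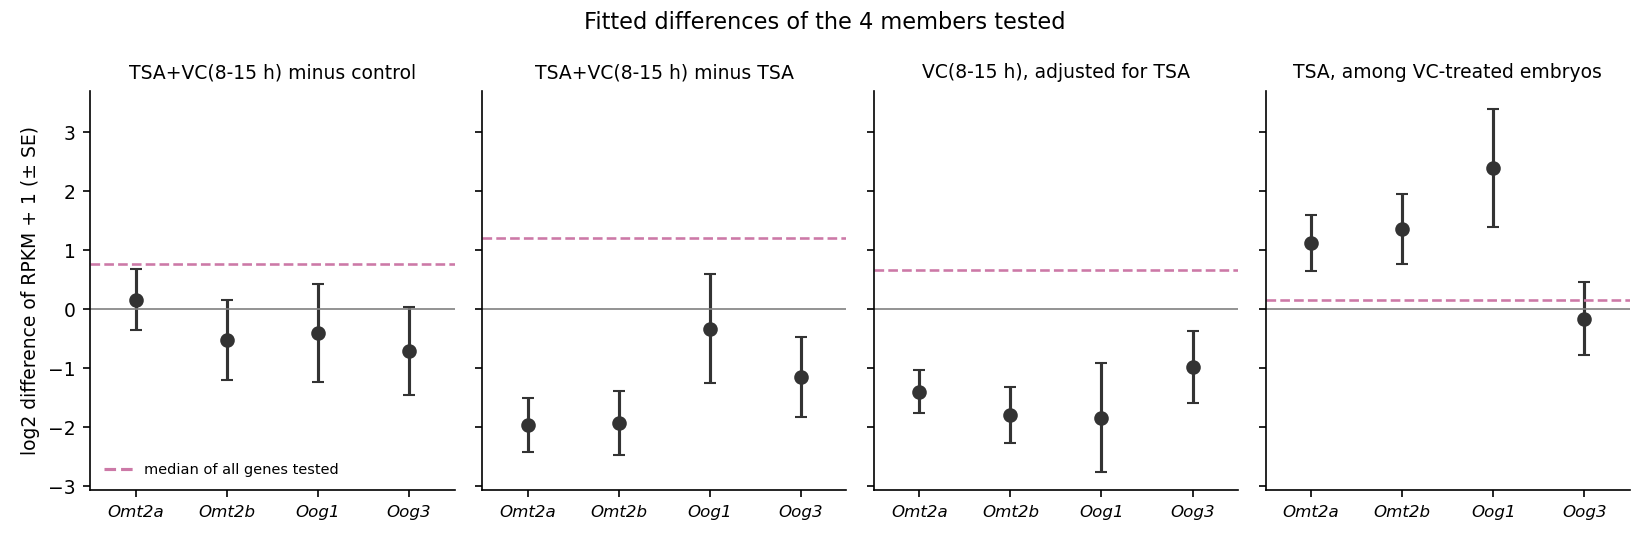
Fitted log2 differences of RPKM + 1 with their standard errors (bars) for the 4 members tested in 4 comparisons, with the median of all genes tested as a dashed line and 0 as a grey line. Both Omt2 genes lie near -2 for late VC after TSA, where the median of all genes tested is 1.20, and at 1.12 and 1.36 for TSA among VC-treated embryos.

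Other genes of the oocyte and of the PRAME-like family give the setting of these values. Of the 29 oocyte markers the highest by median RPKM were Zbed3 (1221), a partner of the maternal protein complex under the egg surface, Bmp15 (253), a growth factor of the oocyte, and Btg4 (209.6), an adaptor for the removal of maternal RNA. Between 10 and 15 of the list were tested in each of the 4 comparisons, and after adjustment 0 were higher and 0 lower in any. In TSA+VC(8-15 h) against TSA(0-8 h) their median log2 difference was 0.43, and 40.0% of those tested were lower, beside 28.0% of all genes. Among VC-treated embryos the median with TSA was -0.24, with 1 gene higher and 1 lower at an unadjusted p-value under 0.05. The higher one was Zbed3, with a log2 difference of 1.30 (SE 0.46, adjusted p = 0.351).

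Of 39 PRAME-like genes other than the members, 11 to 21 were tested per comparison, and after adjustment 0 were higher and 0 lower. The 3 highest by median RPKM were Pramel51 (84.7), Pramel17 (77.9) and Pramel13 (64.5). Oog3, at a median of 371, exceeded the whole list, and so did Oog1, at 132, as the sum of its 2 entries. Each Oog1 entry on its own had a lower median than Pramel51 and Pramel17, and whether reads were counted on both is not given. For the PRAME-like genes tested the median log2 difference of TSA+VC(8-15 h) was 1.90 against control and 0.31 against TSA(0-8 h). Against control, 6 of 16 were higher and 0 lower at an unadjusted p-value under 0.05, beside 13.9% of all genes that were higher. Of the 12 markers of the two-cell embryo, 4 to 5 were tested per comparison and 0 passed, with medians of 3.48 and 2.90 in these comparisons. A gene could pass the filter through the group where it was high alone, so these medians and counts of both lists are partly fixed by the filter. In TSA(0-8 h) against control 2 of these markers and 9 PRAME-like genes passed it, against 5 and 16 in these comparisons. The medians of the 4 members were -0.46, with 3 below 0, and -1.54, with 4 below 0, and the difference from these lists was not tested. Omt2a and Omt2b enter both medians, and both comparisons hold embryos that chose Omt2a, so these medians are partly fixed by the choice. Oog1 and Oog3 were at -0.41 and -0.71 against control and at -0.33 and -1.15 against TSA(0-8 h).

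The neighbours of the Omt2 genes did not share their level. Of the 5 protein-coding genes annotated on each side of Omt2a, Gsta1, Gm3776 and Gsta2 were at 0 in all 14 embryos, Gm10639 reached 1 RPKM in 1 embryo and Gsta4, a glutathione transferase gene, in 3, and Dppa5b and Gm8074 had no entry. Ooep, which encodes a protein of the maternal complex of the egg, was at 604 RPKM in TSA(0-8 h) replicate 3 and at no more than 10.1 RPKM in the other 13 embryos. Dppa5a, a gene of pluripotent cells, was at 1 RPKM or more in 8 embryos, with its highest level, 849 RPKM, in control replicate 2. Omt2b was the only neighbour at 1 RPKM or more in all embryos.

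Among 1819 genes at 1 RPKM or more in at least 12 embryos, those most like Omt2a by Spearman correlation over the 14 embryos were Diaph3 (rho 0.82), Rbm5 (0.71), E2f4 (0.71), Mtpn (0.67) and Foxj3 (0.67). Those most like Oog3 were Ccdc82 (0.79), Ywhaq (0.78), Wdr26 (0.74), Tasor2 (0.73) and Kat14 (0.73). The median rho over all pairs searched was -0.07. Omt2b, left out of the search, would stand in second place for Omt2a. These are the highest of many correlations and carry no test.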

How the data were processed

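RNA of 14 single embryos was amplified, sequenced as single-end reads and, per the labels and the study's methods, mapped to mm9 with TopHat2 by the authors, who deposited RPKM values per RefSeq transcript entry; their counting on shared or overlapping exons is not given in the sources used here. Entries were matched to symbols (20242 of 20636 genes) and summed per gene. No column of other samples was present (0). The members, lists and comparisons were chosen with earlier results of these data known. Genes with 1 RPKM or more in all embryos of a group compared were tested on log2(RPKM+1), a scale that understates changes of low genes, with limma 3.58.1 (lmFit, eBayes with a trend) in R 4.3.3, two-sided, with Benjamini-Hochberg adjustment over all genes tested and a threshold of 0.05. In each comparison 4 of the 5 members passed this filter, all in every embryo of both groups, and Oog4 did not. The study states for the TSA+VC(8-15 h) embryos that nuclear transfer was repeated on 3 occasions, but which occasion each embryo came from is not given in the sources used here, so p-values measure the spread between single embryos. For Omt2a and Omt2b only the comparison among VC-treated embryos is used as a test, since the other comparisons hold embryos that chose Omt2a. There they were fitted with all other genes, and their calls are given as counts only.

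Whole reads were recovered from the steps of the RPKM values, with a tolerance of 0.001 reads, for 99.8% to 99.99% of the reads of an embryo, and were used for limma-voom and read numbers. The fit and the recovery were tested on simulated data. Groups came from the labels and pools from the library identifiers. Named were the members, Oog2, the 3 highest genes by median of the PRAME-like and oocyte lists, the 5 neighbours on each side of Omt2a, and the 5 genes most like Omt2a and Oog3. Names with the shared promoter core, markers at 0 and the highest cumulus and granulosa markers were chosen after their values were seen. Alternatives were a pseudocount of 0.1, no filter, 5 RPKM, a filter blind to the groups, quantile and median-ratio scaling, scaling to equal sums, single entries, Omt2a and Omt2b summed, eBayes without a trend, unadjusted p under 0.01, a replicate block and leaving out each embryo. Python 3.11.15, pandas 2.3.3 and scipy 1.17.1 were used for the rest.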

Additional observations from a re-analysis of the deposited data

Results flagged for a closer look

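Among the 5 embryos with TSA and VC, Oog4 was at 1.72 RPKM (11 reads) in TSA+VC(0-8 h) replicate 1, apart from the other 4, which had 0 to 0.118 RPKM. About 1 in 20 such groups would be marked by chance if values were normally distributed, which cannot be assumed for values of 0 to 11 reads. The rule was applied to the highest and the lowest value of each of the 5 genes. Both the marked value and its distance lie at the level of a few reads, far below the 112.6 RPKM of control replicate 1, whose group of 3 embryos is too small for this rule.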

How the results depend on the processing

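With no member called in the 4 comparisons, alternatives could only add calls. All calls added were of Omt2a or Omt2b in comparisons that include the TSA(0-8 h) embryos that chose Omt2a, so they are counts and no test of these genes. For TSA+VC(8-15 h) against TSA(0-8 h), 1 member was called with a pseudocount of 0.1 (Omt2a), 1 with a minimum of 5 RPKM (Omt2a) and 2 at an unadjusted p-value under 0.01, and leaving out 1 embryo gave 0 to 2, with 2 without TSA+VC(8-15 h) replicate 3. For VC(8-15 h) with TSA as a covariate, 1 was called with each entry on its own, the shorter entry of Omt2a (log2 difference -2.50), which had 108 reads in VC(8-15 h) replicate 2, and 2 at an unadjusted p-value under 0.01. The cause was not tested. Calls over all genes ranged from 0 to 298 and from 0 to 6 across alternatives, beside 0 and 1, and from 0 to 321 against control and 0 to 85 for TSA among VC-treated embryos, beside 0.

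The Omt2a difference against control was reversed with median-ratio scaling (-0.66), with Omt2b summed in (-0.084), in limma-voom (-0.068) and in 3 of 6 fits without 1 embryo (-0.13 to 0.62), those without control replicate 1 (-0.13) or 2 (-0.014) or TSA+VC(8-15 h) replicate 3 (-0.13). Reversed without 1 embryo were Omt2b (-1.09 to 0.28, the latter without control replicate 3) and Oog1 (-0.83 to 0.018, the latter without TSA+VC(8-15 h) replicate 1) against control. So were Oog1 against TSA(0-8 h) (-0.79 to 0.17, with 0.17 without TSA(0-8 h) replicate 1, 0.098 without TSA+VC(8-15 h) replicate 1 and 0.21 in limma-voom) and Oog3 for TSA among VC-treated embryos (-0.41 to 0.074, with 0.059 without the VC(0-8 h) embryo and 0.074 without TSA+VC(8-15 h) replicate 3). Median-ratio scaling brought the median of all genes from 1.20 to -0.0021 against TSA(0-8 h) and Omt2a to -3.23. For TSA(0-8 h) against control, the described difference ran from 1.20 (limma-voom) to 2.63 (without TSA(0-8 h) replicate 3) for Omt2a and from 0.44 (limma-voom) to 2.20 (without control replicate 3) for Omt2b. There Oog1 turned to 0.26 without control replicate 1, 0.39 without TSA(0-8 h) replicate 3 and 0.37 with median-ratio scaling, and without control replicate 1 Oog3 turned to -0.18 and Oog4 to 0.28.

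Same-numbered embryos did not deviate together (correlations of -0.048 to 0.070 over all comparisons), so the numbers were not taken to pair the embryos beyond the shared pool. With the replicate block, 2 members were called for TSA+VC(8-15 h) against TSA(0-8 h) (Omt2a and Omt2b), among 153 genes, and 0 in the other comparisons. These calls too are counts and no test of Omt2a and Omt2b, since the TSA(0-8 h) embryos chose Omt2a. The 3 within-pool differences of Omt2a had an SD of 1.39. The block turned Oog3 for TSA among VC-treated embryos to 0.18. The depth limits Oog4 and Oog2 in most embryos.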
